A study of Homo sapiens with 30 samples.

Results

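Ephrins, netrins and Slits are guidance cues, and the Eph, DCC, neogenin, UNC5 and Robo proteins are the receptors that cells use to read them. The genes of these families were described here across 6 groups of human U2OS cells. They were chosen by name: 9 EPHA and 5 EPHB receptor genes, 5 ephrin A and 3 ephrin B genes, 2 netrin genes, 6 netrin receptor genes, 3 SLIT genes and 4 ROBO genes. These 37 symbols matched 38 of the 57373 rows of the count table, since EFNA3 names 2 rows. Of the 38 rows, 33 passed the filter on low counts and were tested among 18485 genes. The rows left out were EPHA1, EPHA7, EFNB2, SLIT1 and the row of EFNA3 with the identifier ENSG00000251246, which was at 0 in all 30 libraries.

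U2OS is an established osteosarcoma line, labelled as osteosarcoma epithelial cells. Mock-transfected cells (mock) were the control, and other cells received 500 ng of plasmid for 48 h by lipofection. One plasmid encoded wild-type FOXP2 (WT FOXP2), and the other encoded FOXP2 without residues 264 to 272 (dhelix FOXP2), so that both proteins were overexpressed beside the line's own gene. FOXP2 is a forkhead transcription factor. Each of these 3 kinds of cell was also studied with 5 µM CHIR99021 (CHIR), which blocks glycogen synthase kinase 3 and is used to switch on Wnt signalling. CHIR was given 72 h before transfection, and the cells with CHIR but no FOXP2 plasmid are called CHIR below. The labels do not say whether mock or CHIR cells received empty plasmid. In every comparison of a FOXP2 group with a group without FOXP2, FOXP2 and plasmid DNA therefore cannot be told apart. All 6 groups held 5 samples of 1 cell line, called biological replicates. Nothing says that they came from separate cultures, so p-values measure the spread between these samples, which may be technical. The genotype label of 1 WT FOXP2 + CHIR library omits the word WT, and its title places it with the other 4.

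Ephrins are bound to the cell surface, the A class by a lipid anchor and the B class by a membrane-spanning segment, and they signal through Eph receptor tyrosine kinases on touching cells. Netrins are secreted proteins that attract through DCC or neogenin and repel through UNC5 receptors, and Slits are secreted proteins that repel through Robo receptors. These systems are best known for steering axons, and they also act in vessels, epithelia, bone and tumours.

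Libraries held between 15755842 and 29466652 counts. The biological coefficient of variation common to the genes tested was 5.62%. CPM, the counts scaled to a common depth, were computed on library sizes scaled by trimmed means of M values. FOXP2 averaged 0.898 CPM in mock, 0.504 in CHIR, 7076 in WT FOXP2, 15299 in WT FOXP2 + CHIR, 5319 in dhelix FOXP2 and 13481 in dhelix FOXP2 + CHIR. AXIN2, a Wnt target, averaged 20.95 CPM in mock and 145 in CHIR. Markers are called found if they had a row in the count table, at any level. Of the labelled line's mesenchymal markers, 8 of 8 were found, with VIM at 1968 CPM and NT5E at 0.0163 CPM in mock. Their sum was 5459 to 5660 CPM in mock and 2382 to 2547 in WT FOXP2 + CHIR, the lowest group. The summed epithelial markers, 6 of 6 found, were 360 to 400 CPM in mock, 332 to 411 in CHIR and 544 to 689 over the 4 FOXP2 groups. KRT18 averaged 169.5 CPM in mock and 481 in WT FOXP2, while CDH1, a defining epithelial marker, averaged 0.377 CPM in mock and 1.34 in dhelix FOXP2, its highest group. The summed blood markers, 5 of 5 found, were 0.389 to 0.775 CPM in mock, 2.36 to 3.04 in CHIR and 10.5 to 20.2 over the 4 FOXP2 groups. ITGAM averaged 0.123 CPM in mock and 10.9 in WT FOXP2, and the general leukocyte marker PTPRC 0.301 and 0.102. The summed neuronal markers, 5 of 5 found, were 26.5 to 27.8 CPM in mock and 48.0 to 54.1 in CHIR, and the summed glial markers, 4 of 4 found, were 5.77 to 7.39 CPM in mock and at most 0.650 in the other groups. The part of these marker levels in the results was not tested. CHIR replicate 1, dhelix FOXP2 replicate 5 and WT FOXP2 + CHIR replicate 4 stood apart from their groups. Set against the other libraries of its group, each had a mean chi-square per gene of 28.5, 10.9 and 5.98, against at most 10.8, 4.62 and 4.47 for the others. Without these 3 libraries, the members higher and lower numbered 10 and 19 for CHIR against mock, 8 and 21 for WT FOXP2 against mock, and 9 and 22 for dhelix FOXP2 against mock.

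The sequences just before the start site are shown for 4 members that the results below turn on. Among the members tested, EPHB3 had the largest fall with CHIR against mock, and UNC5C the largest with each construct. ROBO4 rose most with each construct, and EPHA2 rose with both. They are the 250 bases upstream of the RefSeq start on GRCh38.p14, read 5′ to 3′ along the gene's strand, and capitals mark a match to CTTTGA, the core recognised by TCF/LEF factors, on either strand.
EPHB3 (chr3:184561535-184561784, plus strand): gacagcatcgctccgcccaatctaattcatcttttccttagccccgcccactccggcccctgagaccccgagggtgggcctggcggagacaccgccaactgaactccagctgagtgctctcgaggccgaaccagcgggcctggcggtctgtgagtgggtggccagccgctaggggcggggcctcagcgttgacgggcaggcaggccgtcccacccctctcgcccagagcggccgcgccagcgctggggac
UNC5C (chr4:95548974-95549223, minus strand): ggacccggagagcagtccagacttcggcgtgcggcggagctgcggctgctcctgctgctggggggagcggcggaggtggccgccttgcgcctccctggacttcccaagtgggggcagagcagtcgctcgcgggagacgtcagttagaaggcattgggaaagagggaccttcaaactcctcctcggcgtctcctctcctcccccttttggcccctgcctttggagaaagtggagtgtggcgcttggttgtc
ROBO4 (chr11:124897866-124898115, minus strand): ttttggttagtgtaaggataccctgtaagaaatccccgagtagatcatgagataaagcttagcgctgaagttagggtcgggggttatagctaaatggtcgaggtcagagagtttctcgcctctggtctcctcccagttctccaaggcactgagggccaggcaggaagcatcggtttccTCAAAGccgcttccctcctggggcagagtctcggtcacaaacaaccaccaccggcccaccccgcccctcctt
EPHA2 (chr1:16156070-16156319, minus strand): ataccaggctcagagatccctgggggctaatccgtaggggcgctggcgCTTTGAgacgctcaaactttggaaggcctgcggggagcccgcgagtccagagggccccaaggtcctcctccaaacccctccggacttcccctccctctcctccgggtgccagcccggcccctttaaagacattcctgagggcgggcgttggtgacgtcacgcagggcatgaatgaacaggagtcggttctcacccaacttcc
RefSeq promoters were used for 32 of the 37 symbols. Any members on a single chromosome were left out by a rule that was not applied to the shares over all genes. How many of the missing symbols this rule covers is not given here. CTTTGA, or TCAAAG on the other strand, was found upstream of 4 of the 32 (12.5%), namely EPHA2, ROBO3, ROBO4 and SLIT1, against 13.5% of 27305 genes and 11.2% of 35116 promoters. EPHB1 and DCC, which rose more than EPHA2 with each construct, held no CTTTGA or TCAAAG. The forkhead core TGTTTAC, or GTAAACA, was found in 0 of 32, against 3.66% of genes and 2.98% of promoters. CAAATT, or AATTTG, a motif described for FOXP2, was found in 2 of 32 (6.25%), EPHA1 and ROBO2, against 11.7% of genes and 9.61% of promoters. A gene with several starts was counted once if any of its promoters held the letters. These are matches of letters in a short window and say nothing about binding.

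On a scale of CPM per kb of annotated exon, which allows genes to be compared with each other, the 6 highest members in mock cells were 3 receptors and 3 ephrins. The receptors NEO1 (neogenin), EPHB4 and EPHA2 were at 16.7, 15.6 and 13.6 CPM per kb. The ligands EFNB3, EFNA4 and EFNA2 were at 14.8, 13.3 and 10.8 CPM per kb. In WT FOXP2 cells EPHA2 stood at 45.7 CPM per kb, while NEO1 stood at 8.05 and EPHB4 at 8.49. The exon lengths come from GENCODE 29, a newer annotation than the hg19 build of the counts, so they approximate the lengths counted.

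**Figure D1:**
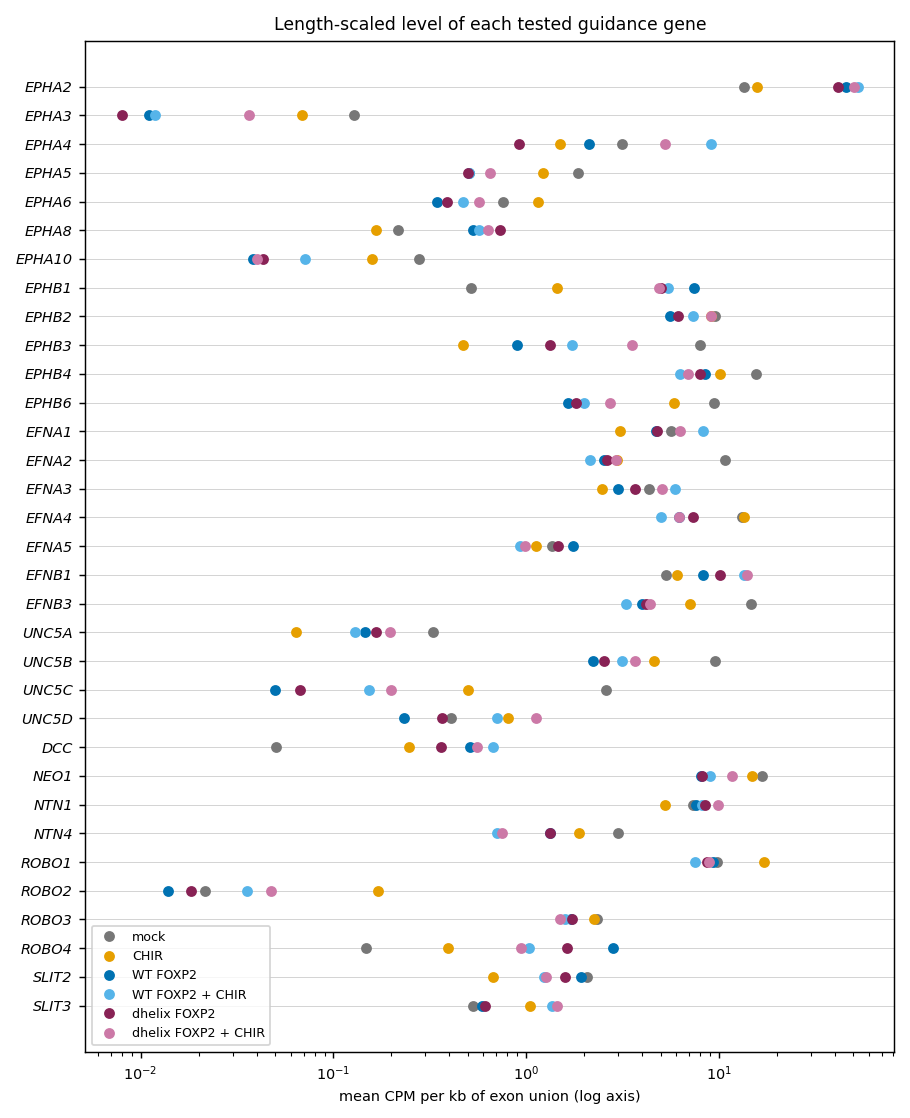
Mean level of the 33 members tested per group, in CPM per kb of annotated exon on a log axis, ordered by family. NEO1 (16.7) and EPHB4 (15.6) are highest in mock, and EPHA2 reaches 45.7 in WT FOXP2.

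Each level below is a mean ± SD in CPM over 5 libraries, and each change is a log2 fold change ± SE from 1 edgeR quasi-likelihood fit over all 30 libraries. Adjusted p-values are Benjamini-Hochberg values over the 18485 genes, with a threshold of 0.05. RNA came from bulk cultures, so fewer cells that express a gene and less RNA per cell cannot be told apart. Mock was the highest of the 6 groups for 16 of the 33 members tested, WT FOXP2 + CHIR for 5, CHIR for 4, dhelix FOXP2 + CHIR for 4, WT FOXP2 for 3 and dhelix FOXP2 for 1. The lowest group was WT FOXP2 for 9 members, CHIR and WT FOXP2 + CHIR for 7 each, mock for 6, dhelix FOXP2 for 3 and dhelix FOXP2 + CHIR for 1. These ranks compare means, and their shares over all genes were not computed, so they show no trait of the members. Among those highest in mock, libraries overlapped with CHIR for EPHA3, EPHB2, NEO1 and ROBO3 and with WT FOXP2 for SLIT2.

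In CHIR against mock, 10 members rose and 19 fell. Of all genes tested, 74.1% changed in that comparison, 38.8% up and 35.3% down. The median log2 fold change was -0.48 over the members and 0.02 over all genes. In WT FOXP2 against mock, 7 members rose and 21 fell, where 81.6% of all genes changed, 39.9% up and 41.6% down, and the medians were -0.77 and -0.02. In dhelix FOXP2 against mock, 8 rose and 22 fell, where 80.5% of all genes changed, 39.6% up and 40.9% down, with medians of -0.63 and -0.02. More members lay below mock than above it in all 3 comparisons, and these share the mock libraries. Changes of at least 2-fold were made by 4 members upward and 8 downward with CHIR, 5 and 14 with WT FOXP2, and 5 and 12 with dhelix FOXP2. Of all genes, 22%, 32.6% and 29.5% changed that far.

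**Figure D2:**
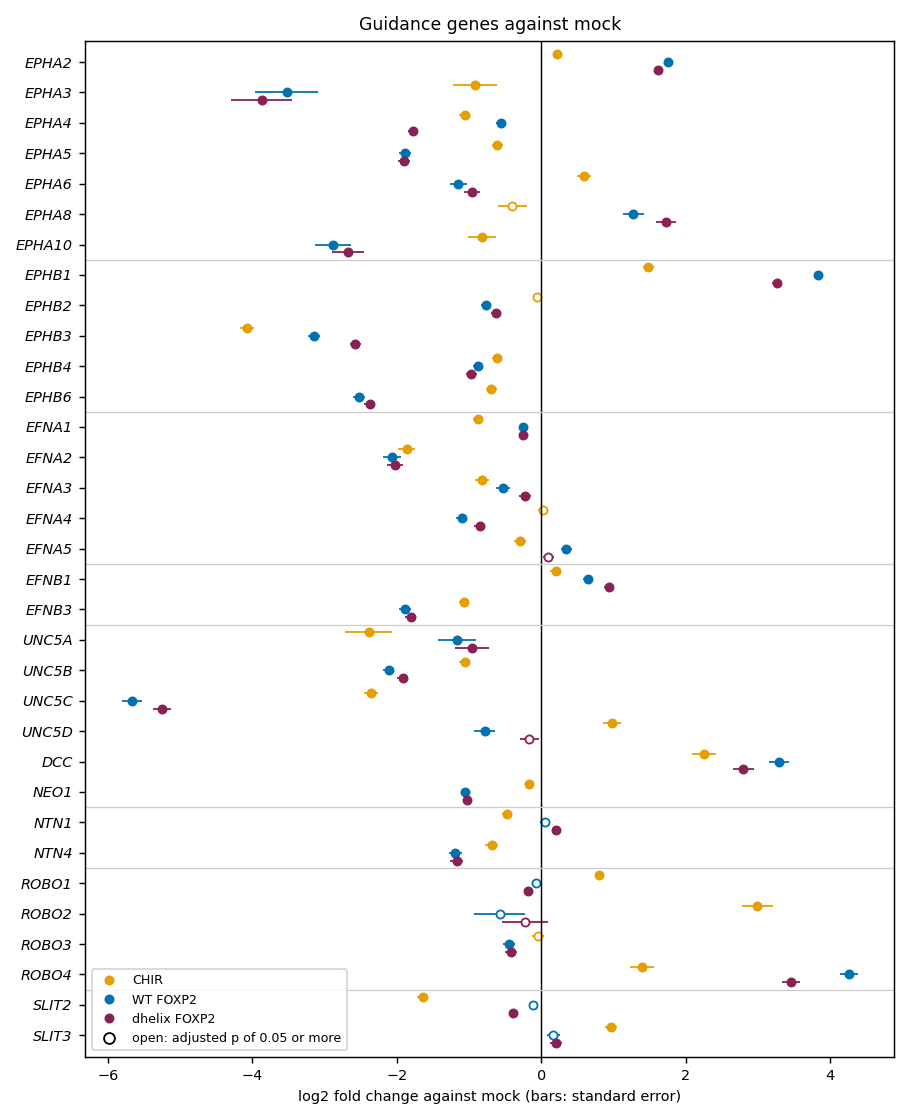
Log2 fold change against mock of the 33 members tested, for CHIR, WT FOXP2 and dhelix FOXP2, with bars of 1 SE and open symbols where the adjusted p is 0.05 or more. UNC5C and EPHB3 lie far below 0 and ROBO4, EPHB1 and DCC above it in all 3 comparisons, which share the mock libraries.

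Among the A-class ephrins, 4 of 5 fell with CHIR, where 35.3% of all genes fell, and 4 of 5 fell with WT FOXP2, where 41.6% did. EFNA1, a high-affinity ligand of EPHA2, averaged 14.3 ± 0.807 CPM in mock, 7.80 ± 0.734 in CHIR, 12.1 ± 0.931 in WT FOXP2, 21.04 ± 0.578 in WT FOXP2 + CHIR, 12.1 ± 0.983 in dhelix FOXP2 and 16.03 ± 0.687 in dhelix FOXP2 + CHIR. It was lowest in CHIR and highest in WT FOXP2 + CHIR. CHIR lowered it in cells without FOXP2 (-0.88 ± 0.07, adjusted p = 5.0e-14, edgeR) and raised it in WT FOXP2 cells (0.80 ± 0.06, adjusted p = 6.7e-14). EFNA2 averaged 10.2 ± 0.795 CPM in mock, 2.81 ± 0.507 in CHIR, 2.41 ± 0.591 in WT FOXP2, 2.03 ± 0.261 in WT FOXP2 + CHIR, 2.50 ± 0.308 in dhelix FOXP2 and 2.78 ± 0.506 in dhelix FOXP2 + CHIR. Mock libraries held 9.48, 9.74, 10.6, 9.83 and 11.4 CPM and CHIR libraries 2.16, 2.86, 2.97, 2.53 and 3.51, with no overlap, and the change was -1.87 ± 0.12 (adjusted p = 1.8e-16). The 5 groups other than mock lay close together, at means of 2.03 to 2.81 CPM.

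EFNA3 averaged 8.30 ± 0.878 CPM in mock, 4.71 ± 0.875 in CHIR, 5.70 ± 0.629 in WT FOXP2, 11.4 ± 0.658 in WT FOXP2 + CHIR, 7.05 ± 0.512 in dhelix FOXP2 and 9.64 ± 0.103 in dhelix FOXP2 + CHIR, and its order of groups was the same as that of EFNA1. EFNA4 averaged 16.8 ± 0.758 CPM in mock, 17.1 ± 1.90 in CHIR, 7.83 ± 0.695 in WT FOXP2, 6.36 ± 0.522 in WT FOXP2 + CHIR, 9.25 ± 0.929 in dhelix FOXP2 and 7.89 ± 0.658 in dhelix FOXP2 + CHIR. It fell in the FOXP2 groups, by 1.10 ± 0.08 with WT FOXP2 against mock, and did not pass the test for CHIR against mock (0.02 ± 0.07, adjusted p = 0.769). EFNA5, a ligand known for topographic maps in the visual system, averaged 7.82 ± 0.582 CPM in mock, 6.45 ± 0.710 in CHIR, 10.02 ± 0.980 in WT FOXP2, 5.31 ± 0.320 in WT FOXP2 + CHIR, 8.40 ± 0.493 in dhelix FOXP2 and 5.61 ± 0.589 in dhelix FOXP2 + CHIR. It was the only A-class ephrin that rose with WT FOXP2 (0.34 ± 0.08, adjusted p = 1.2e-04). The second EFNA3 row, at 0 everywhere, spans exons shared with EFNA3 (853 bases) and with EFNA4 (189 bases). The counts of both genes are uncertain to the extent that reads there were left uncounted.

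The 2 B-class ephrins measured moved in opposite directions with FOXP2. EFNB1, a ligand of the EPHB receptors with a role in skull and facial bone, averaged 17.7 ± 1.73 CPM in mock, 20.2 ± 3.25 in CHIR, 27.5 ± 0.861 in WT FOXP2, 44.9 ± 0.940 in WT FOXP2 + CHIR, 33.8 ± 1.40 in dhelix FOXP2 and 46.5 ± 2.44 in dhelix FOXP2 + CHIR. WT FOXP2 libraries held 26.3, 28.3, 27.1, 28.4 and 27.4 CPM and mock libraries 16.6, 16.4, 16.4, 19.96 and 19.2, without overlap. The rise was 0.65 ± 0.07 with WT FOXP2 and 0.94 ± 0.07 with dhelix FOXP2 (adjusted p = 2.0e-10 and 4.0e-15). Its rise with CHIR alone was 0.20 ± 0.07 (adjusted p = 0.0155), and that call was lost without any 1 of mock replicates 1, 2 and 3 or CHIR replicates 3 and 5 (adjusted p = 0.0896, 0.1, 0.084, 0.159 and 0.14). EFNB3 averaged 47.6 ± 1.86 CPM in mock, 22.7 ± 3.50 in CHIR, 12.9 ± 0.694 in WT FOXP2, 10.6 ± 1.19 in WT FOXP2 + CHIR, 13.6 ± 0.928 in dhelix FOXP2 and 14.2 ± 1.38 in dhelix FOXP2 + CHIR. It fell by 1.07 ± 0.07 with CHIR and by 1.89 ± 0.08 with WT FOXP2 (adjusted p = 1.2e-15 and 1.2e-22), and mock exceeded every other group in all libraries.

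Of the 7 EPHA receptors tested, 5 fell and 2 rose with each FOXP2 construct, where 41.6% of all genes fell and 39.9% rose with WT FOXP2 and 40.9% and 39.6% with dhelix FOXP2. EPHA2, a receptor that many epithelial and sarcoma cells express at high level, was among the 2 that rose. Its level was 57.2, 55.97, 55.7, 57.1 and 56.5 CPM in the mock libraries, 174, 193, 197, 202 and 185 in WT FOXP2 and 165, 182, 179, 172 and 171 in dhelix FOXP2. All FOXP2 libraries lay above all mock libraries, and the rise was 1.75 ± 0.06 with WT FOXP2 (3.36-fold) and 1.62 ± 0.06 with dhelix FOXP2 (adjusted p = 4.2e-26 and 4.6e-25). With CHIR in addition it averaged 219 ± 10.2 and 208 ± 10.6 CPM, and with CHIR alone 65.9 ± 8.19. EPHA8 averaged 1.16 ± 0.122 CPM in mock, 0.890 ± 0.186 in CHIR, 2.85 ± 0.570 in WT FOXP2, 3.05 ± 0.424 in WT FOXP2 + CHIR, 3.94 ± 0.481 in dhelix FOXP2 and 3.40 ± 0.376 in dhelix FOXP2 + CHIR. It rose by 1.28 ± 0.15 with WT FOXP2 and by 1.72 ± 0.14 with dhelix FOXP2 (adjusted p = 1.0e-09 and 5.7e-14).

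EPHA4 (ENSG00000116106), a receptor that binds ephrins of both classes, had the clearest separation of groups within the A class. Its libraries held 23.1, 23.8, 25.1, 23.1 and 23.1 CPM in mock, 12.4, 11.01, 11.2, 11.9 and 10.2 in CHIR and 13.8, 16.2, 17.1, 17.9 and 15.6 in WT FOXP2. They held 70.6, 67.9, 70.5, 65.6 and 67.97 CPM in WT FOXP2 + CHIR, 6.61, 7.67, 7.22, 6.28 and 6.73 in dhelix FOXP2 and 46.4, 39.2, 33.7, 42.2 and 38.4 in dhelix FOXP2 + CHIR. From high to low, the order was WT FOXP2 + CHIR, dhelix FOXP2 + CHIR, mock, WT FOXP2, CHIR and dhelix FOXP2, and no neighbouring groups overlapped. CHIR lowered EPHA4 in cells without FOXP2 (-1.06 ± 0.07, adjusted p = 1.1e-15) and raised it in WT FOXP2 cells (2.09 ± 0.06, adjusted p = 1.3e-25) and in dhelix FOXP2 cells (2.53 ± 0.07, adjusted p = 1.1e-26). An antisense gene shares 353 exon bases with EPHA4, and the strand setting of the counting is not given in the sources used here.

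The remaining EPHA receptors were lower with FOXP2. EPHA5 averaged 18.4 ± 1.22 CPM in mock, 12.03 ± 0.976 in CHIR, 4.96 ± 0.504 in WT FOXP2, 4.99 ± 0.652 in WT FOXP2 + CHIR, 4.91 ± 0.303 in dhelix FOXP2 and 6.38 ± 1.11 in dhelix FOXP2 + CHIR, and it overlaps the antisense gene EPHA5-AS1 over 535 exon bases. EPHA6 averaged 4.78 ± 0.106 CPM in mock, 7.22 ± 0.913 in CHIR, 2.16 ± 0.284 in WT FOXP2, 2.96 ± 0.362 in WT FOXP2 + CHIR, 2.45 ± 0.406 in dhelix FOXP2 and 3.58 ± 0.479 in dhelix FOXP2 + CHIR. EPHA10, which has no active kinase domain, averaged 2.27 ± 0.352 CPM in mock, 1.30 ± 0.217 in CHIR, 0.313 ± 0.161 in WT FOXP2, 0.578 ± 0.287 in WT FOXP2 + CHIR, 0.351 ± 0.0726 in dhelix FOXP2 and 0.327 ± 0.123 in dhelix FOXP2 + CHIR, and its fall was -2.89 ± 0.25 with WT FOXP2 (adjusted p = 4.3e-13) and -2.68 ± 0.23 with dhelix FOXP2 (adjusted p = 2.2e-13). EPHA3, a receptor for ephrin A5, stayed near or below 1 CPM. It ranged from 0.681 to 1.08 CPM in mock, 0.330 to 0.695 in CHIR and 0 to 0.188 in WT FOXP2, where it had 7 counts in all, and mock and WT FOXP2 did not overlap. Its fall was -3.53 ± 0.44 with WT FOXP2 and -3.87 ± 0.43 with dhelix FOXP2, and the latter was -4.61 without dhelix FOXP2 replicate 2. Each mock library held at least 13 counts of EPHA3, and no library of another group more than 11. EPHA3 thus passed the filter on low counts through mock, which favoured a fall against mock in advance. It is counted among the members that fell with each construct.

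**Figure D3:**
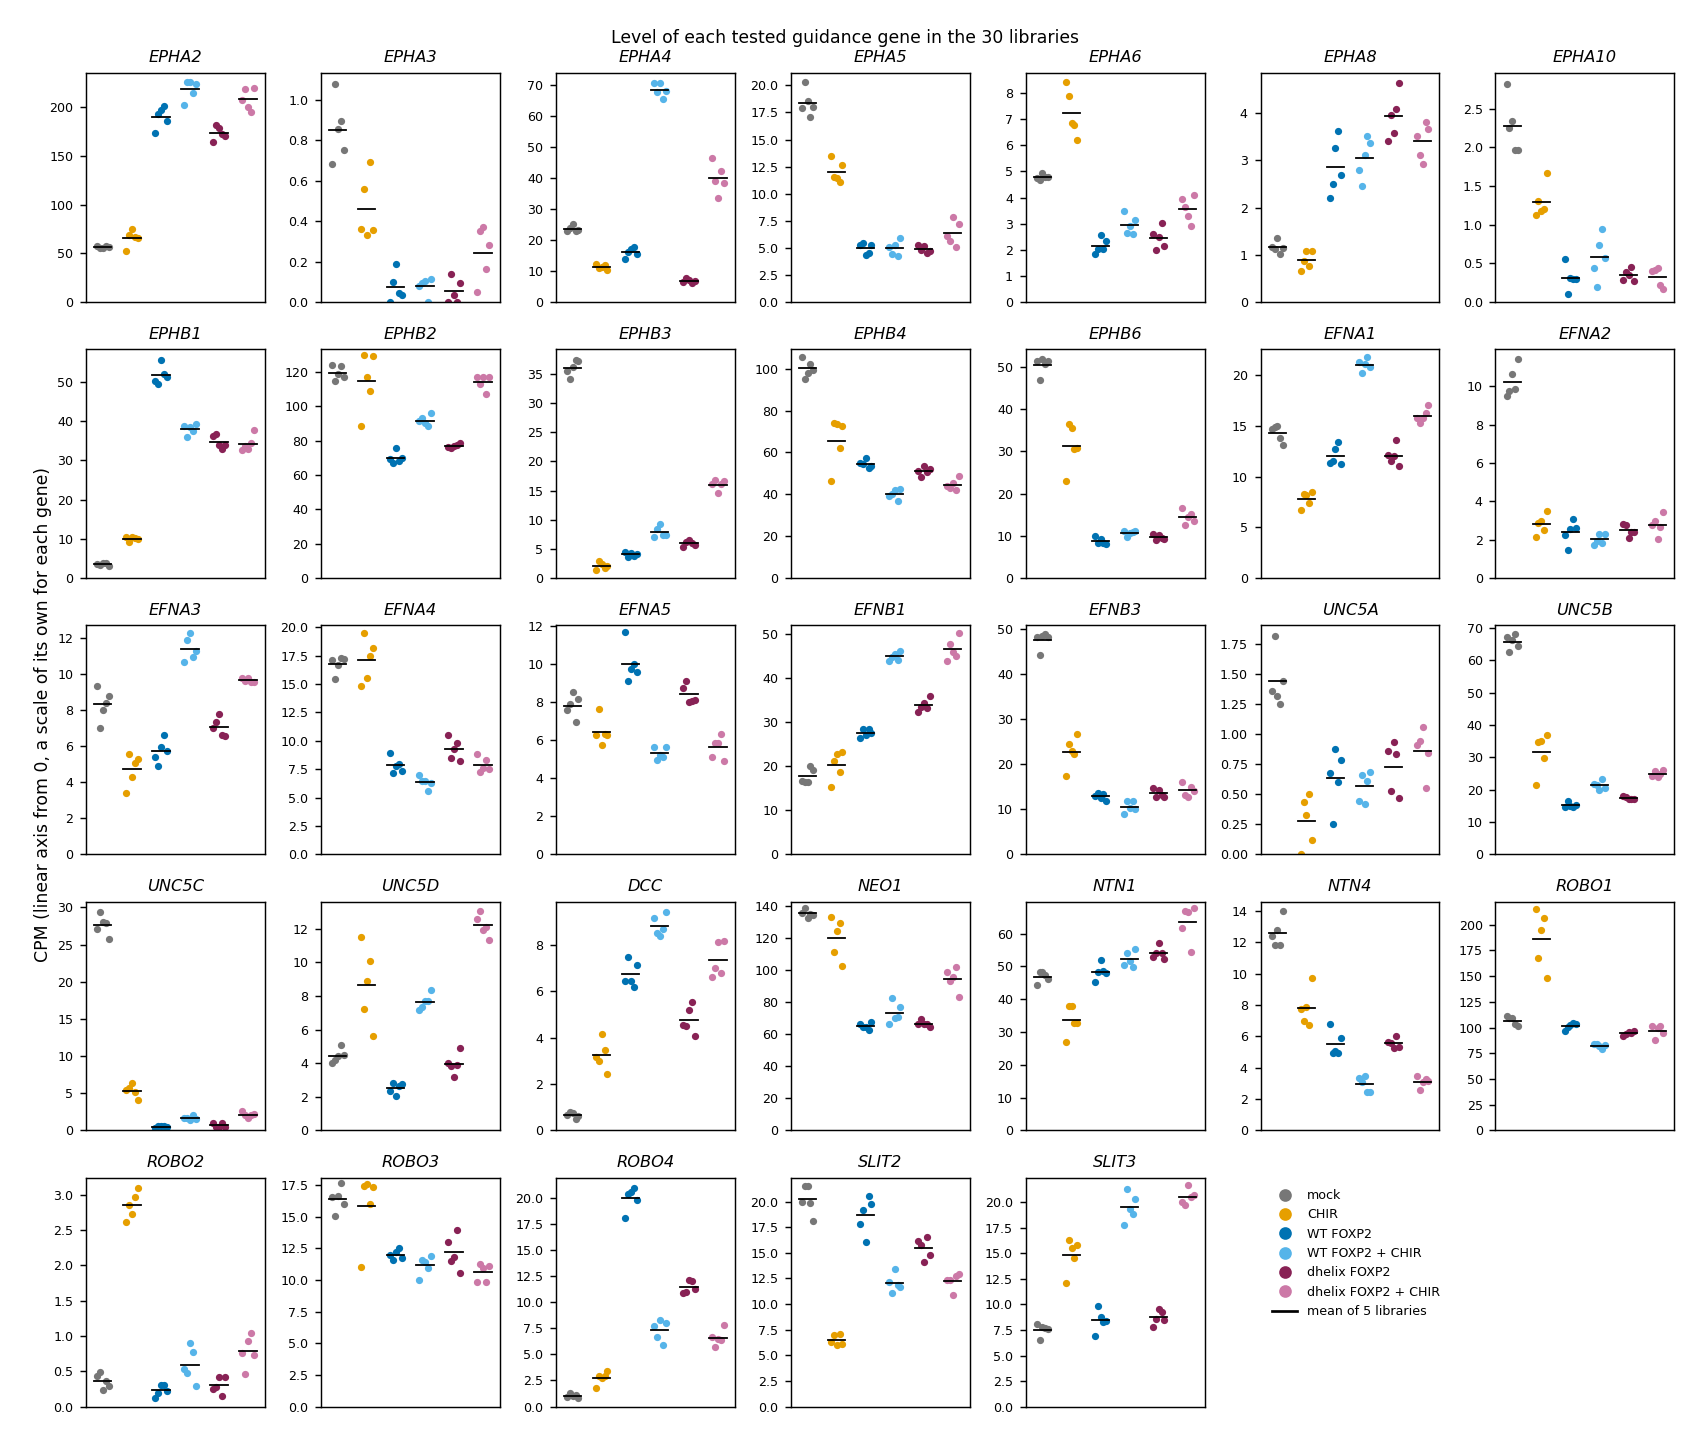
Level of the 33 members tested in each of the 30 libraries (points), in CPM on a linear axis from 0 with a scale of its own for each gene, by group, with the mean of 5 libraries as a line. EPHB3 and EPHA4 show 6 separate groups, and UNC5C drops from 27.6 CPM in mock to 0.533 in WT FOXP2.

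EPHB3 (ENSG00000182580) had the largest fall of the EPHB receptors, a class whose members EPHB2 and EPHB3 are known in the intestinal crypt as Wnt targets. Its libraries held 35.4, 34.1, 36.1, 37.4 and 37.1 CPM in mock and 1.49, 2.92, 2.45, 1.71 and 2.08 in CHIR. They held 4.43, 3.69, 4.25, 3.87 and 4.12 CPM in WT FOXP2, 6.98, 8.44, 9.23, 7.36 and 7.36 in WT FOXP2 + CHIR, 5.43, 6.27, 6.60, 6.09 and 5.71 in dhelix FOXP2 and 16.1, 16.8, 14.5, 16.04 and 16.6 in dhelix FOXP2 + CHIR. No neighbouring groups overlapped, and mock was above all others. CHIR alone lowered EPHB3 16.9-fold (-4.08 ± 0.09, adjusted p = 3.0e-30), WT FOXP2 alone 8.87-fold (-3.15 ± 0.08, adjusted p = 7.3e-29) and dhelix FOXP2 alone 5.97-fold (-2.58 ± 0.07, adjusted p = 1.8e-27). Within CHIR-treated cells EPHB3 was higher with WT FOXP2 (1.88 ± 0.11, adjusted p = 1.6e-17) and with dhelix FOXP2 (2.91 ± 0.10, adjusted p = 3.1e-24).

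EPHB1 (ENSG00000154928) moved the other way. Its mock libraries held 3.70, 3.28, 3.89, 3.87 and 3.17 CPM, CHIR libraries 10.5, 9.27, 10.4, 10.4 and 9.88 and WT FOXP2 libraries 50.3, 49.4, 55.6, 51.97 and 51.2. These 3 groups did not overlap, and dhelix FOXP2 libraries, at 36.3, 36.6, 33.9, 32.8 and 33.9 CPM, lay below those of WT FOXP2. The rise against mock was 1.48 ± 0.08 with CHIR (adjusted p = 1.7e-19), 3.84 ± 0.06 with WT FOXP2 (adjusted p = 5.2e-35) and 3.27 ± 0.06 with dhelix FOXP2 (adjusted p = 1.2e-32). With CHIR, the level was 38.03 ± 1.30 CPM in WT FOXP2 cells and 34.2 ± 2.13 CPM in dhelix FOXP2 cells.

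EPHB2, EPHB4 and EPHB6 were all highest in mock. EPHB2 averaged 119 ± 4.03 CPM in mock, 115 ± 17.1 in CHIR, 69.97 ± 3.22 in WT FOXP2, 91.7 ± 2.91 in WT FOXP2 + CHIR, 76.96 ± 1.11 in dhelix FOXP2 and 114 ± 4.40 in dhelix FOXP2 + CHIR, and its mock and CHIR libraries overlapped. EPHB4, a receptor of venous endothelium that binds ephrin B2, averaged 100.1 ± 4.02 CPM in mock, 65.7 ± 11.9 in CHIR, 54.6 ± 1.72 in WT FOXP2, 40.3 ± 2.28 in WT FOXP2 + CHIR, 51.2 ± 1.85 in dhelix FOXP2 and 44.6 ± 2.56 in dhelix FOXP2 + CHIR. EPHB6, which lacks kinase activity, averaged 50.4 ± 2.00 CPM in mock, 31.3 ± 5.30 in CHIR, 8.84 ± 0.751 in WT FOXP2, 10.7 ± 0.596 in WT FOXP2 + CHIR, 9.68 ± 0.582 in dhelix FOXP2 and 14.5 ± 1.60 in dhelix FOXP2 + CHIR, and it fell by 2.52 ± 0.09 with WT FOXP2 and by 2.38 ± 0.08 with dhelix FOXP2 (adjusted p = 2.4e-25 and 3.6e-25). EPHB4 shares 69 exon bases with SLC12A9 on the opposite strand.

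Both netrins fell with CHIR. With dhelix FOXP2 against mock, NTN1 rose and NTN4 fell. NTN1, the founding chemoattractant of the family, averaged 46.9 ± 1.63 CPM in mock, 33.7 ± 4.64 in CHIR, 48.5 ± 2.44 in WT FOXP2, 52.3 ± 2.26 in WT FOXP2 + CHIR, 54.1 ± 1.90 in dhelix FOXP2 and 63.5 ± 5.54 in dhelix FOXP2 + CHIR. It fell with CHIR (-0.48 ± 0.06, adjusted p = 3.2e-08) and did not pass the test for WT FOXP2 against mock (0.05 ± 0.06, adjusted p = 0.497), while within CHIR-treated cells it rose with WT FOXP2 (0.63 ± 0.06, adjusted p = 3.9e-11). NTN4, a netrin of basement membranes, averaged 12.6 ± 0.917 CPM in mock, 7.80 ± 1.18 in CHIR, 5.52 ± 0.798 in WT FOXP2, 2.96 ± 0.484 in WT FOXP2 + CHIR, 5.57 ± 0.317 in dhelix FOXP2 and 3.11 ± 0.330 in dhelix FOXP2 + CHIR. It fell with CHIR and with both constructs, by 0.69 ± 0.09, 1.19 ± 0.09 and 1.17 ± 0.09.

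UNC5C (ENSG00000182168), a receptor that mediates repulsion by netrin, showed the widest span of the 33 members, 51.9-fold between the means of its highest and lowest groups. Its libraries held 27.1, 29.3, 28.1, 27.9 and 25.7 CPM in mock, 5.44, 5.72, 6.37, 5.12 and 4.11 in CHIR, 0.369, 0.599, 0.563, 0.645 and 0.487 in WT FOXP2 and 1.04, 0.490, 0.521, 1.02 and 0.511 in dhelix FOXP2. With CHIR as well, they held 1.62, 1.61, 1.42, 2.06 and 1.48 CPM in WT FOXP2 cells and 2.67, 2.05, 1.68, 2.04 and 2.25 in dhelix FOXP2 cells. Mock lay above CHIR, and CHIR above every FOXP2 library. The fall was -2.36 ± 0.09 with CHIR, -5.67 ± 0.14 with WT FOXP2 (50.9-fold lower) and -5.25 ± 0.12 with dhelix FOXP2 (adjusted p = 6.1e-23, 5.3e-30 and 2.1e-30). UNC5C shares 78 exon bases with an antisense gene.

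The other UNC5 receptors differed among themselves. UNC5A averaged 1.44 ± 0.220 CPM in mock, 0.278 ± 0.213 in CHIR, 0.638 ± 0.241 in WT FOXP2, 0.566 ± 0.123 in WT FOXP2 + CHIR, 0.724 ± 0.214 in dhelix FOXP2 and 0.859 ± 0.188 in dhelix FOXP2 + CHIR, and it fell by 2.39 ± 0.32 with CHIR (adjusted p = 3.2e-08). UNC5B, which is also known from vessel branching, averaged 65.8 ± 2.20 CPM in mock, 31.6 ± 6.22 in CHIR, 15.2 ± 0.791 in WT FOXP2, 21.4 ± 1.34 in WT FOXP2 + CHIR, 17.4 ± 0.379 in dhelix FOXP2 and 25.0 ± 0.961 in dhelix FOXP2 + CHIR, and it fell by 2.12 ± 0.08 with WT FOXP2 and 1.92 ± 0.08 with dhelix FOXP2. UNC5D averaged 4.44 ± 0.404 CPM in mock, 8.67 ± 2.33 in CHIR, 2.53 ± 0.325 in WT FOXP2, 7.66 ± 0.461 in WT FOXP2 + CHIR, 3.97 ± 0.629 in dhelix FOXP2 and 12.2 ± 0.650 in dhelix FOXP2 + CHIR. It was the UNC5 receptor that rose with CHIR (0.98 ± 0.12, adjusted p = 7.0e-09), and it fell with WT FOXP2 (-0.78 ± 0.15, adjusted p = 1.2e-05).

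DCC (ENSG00000187323), the receptor through which netrin 1 attracts, was low in mock and higher in every other group. Its libraries held 0.681, 0.783, 0.759, 0.477 and 0.634 CPM in mock, 3.18, 2.99, 4.15, 3.47 and 2.44 in CHIR, 6.45, 7.48, 6.44, 6.20 and 7.12 in WT FOXP2 and 4.53, 4.52, 5.17, 5.52 and 4.09 in dhelix FOXP2. Mock and CHIR did not overlap, and neither did mock and either construct. The rise was 2.26 ± 0.16 with CHIR, 3.30 ± 0.14 with WT FOXP2 and 2.80 ± 0.14 with dhelix FOXP2 (adjusted p = 4.0e-15, 2.9e-22 and 1.3e-19). With both CHIR and plasmid DCC averaged 8.82 ± 0.437 CPM (WT FOXP2) and 7.33 ± 0.757 CPM (dhelix FOXP2). NEO1, the relative of DCC that also binds repulsive guidance molecules, averaged 136 ± 2.29 CPM in mock, 120.2 ± 12.9 in CHIR, 65.4 ± 1.94 in WT FOXP2, 73.5 ± 6.23 in WT FOXP2 + CHIR, 66.7 ± 1.70 in dhelix FOXP2 and 94.7 ± 7.37 in dhelix FOXP2 + CHIR, and it fell by 1.05 ± 0.06 with WT FOXP2 and 1.02 ± 0.06 with dhelix FOXP2.

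Of the Slits, SLIT2 averaged 20.2 ± 1.42 CPM in mock, 6.51 ± 0.510 in CHIR, 18.7 ± 1.79 in WT FOXP2, 12.01 ± 0.872 in WT FOXP2 + CHIR, 15.5 ± 1.02 in dhelix FOXP2 and 12.3 ± 0.790 in dhelix FOXP2 + CHIR. Its CHIR libraries held 6.32, 7.03, 5.99, 7.08 and 6.13 CPM and lay below those of all other groups, and its fall with CHIR was -1.64 ± 0.08 (adjusted p = 6.3e-21). The change with WT FOXP2 did not pass the test (-0.11 ± 0.06, adjusted p = 0.114), except that it did without mock replicate 5 (adjusted p = 0.0473). SLIT3 averaged 7.55 ± 0.612 CPM in mock, 14.9 ± 1.70 in CHIR, 8.46 ± 1.06 in WT FOXP2, 19.5 ± 1.33 in WT FOXP2 + CHIR, 8.73 ± 0.726 in dhelix FOXP2 and 20.5 ± 0.725 in dhelix FOXP2 + CHIR. The 3 groups with CHIR were the 3 highest for SLIT3, and none of their libraries overlapped those of the 3 groups without it. The rise with CHIR was 0.97 ± 0.08 in cells without FOXP2, 1.20 ± 0.08 in WT FOXP2 cells and 1.23 ± 0.08 in dhelix FOXP2 cells (adjusted p = 4.0e-13, 6.6e-16 and 1.3e-16).

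ROBO4 (ENSG00000154133), a Robo receptor known from endothelium, rose more than any other member tested with WT FOXP2 and with dhelix FOXP2 against mock. Among CHIR-treated cells the highest rise was that of EPHA4 with WT FOXP2 (2.59 ± 0.07) and of EPHB3 with dhelix FOXP2 (2.91 ± 0.10). Its libraries held 0.924, 1.32, 0.990, 1.07 and 0.865 CPM in mock, 1.75, 2.92, 2.78, 2.97 and 3.39 in CHIR, 18.1, 20.4, 20.6, 20.9 and 19.8 in WT FOXP2 and 10.9, 10.9, 12.2, 12.1 and 11.2 in dhelix FOXP2. With CHIR as well, they held 7.71, 6.64, 8.28, 5.91 and 7.98 CPM in WT FOXP2 cells and 6.64, 5.75, 6.52, 6.34 and 7.82 in dhelix FOXP2 cells. The last 2 groups overlapped each other and no other neighbours did. The rise was 1.40 ± 0.17 with CHIR, 4.26 ± 0.12 with WT FOXP2 (19.2-fold) and 3.46 ± 0.13 with dhelix FOXP2 (adjusted p = 2.0e-09, 5.9e-28 and 2.2e-24). Other endothelial markers did not follow the order of ROBO4. The sum of the 4 found besides ROBO4, of 5 listed, was 6.86 to 9.06 CPM in mock, 3.57 to 4.43 in WT FOXP2 and 40.5 to 49.0 in dhelix FOXP2 + CHIR, where VWF averaged 41.2 CPM. CDH5, the defining adhesion molecule of endothelium, averaged 0.417 CPM in mock and 0.698 in WT FOXP2. Antisense genes share 744 and 448 exon bases with ROBO4.

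ROBO1, the most abundant Robo gene per kb in mock (9.82 CPM per kb), averaged 107 ± 4.25 CPM in mock, 186 ± 28.1 in CHIR, 102 ± 3.03 in WT FOXP2, 82.2 ± 2.08 in WT FOXP2 + CHIR, 94.3 ± 1.75 in dhelix FOXP2 and 96.9 ± 5.90 in dhelix FOXP2 + CHIR. It rose with CHIR (0.80 ± 0.06, adjusted p = 1.9e-14), and within CHIR-treated cells it fell with WT FOXP2 (-1.18 ± 0.06, adjusted p = 5.1e-19). ROBO2 averaged 0.361 ± 0.106 CPM in mock, 2.86 ± 0.187 in CHIR, 0.232 ± 0.0779 in WT FOXP2, 0.593 ± 0.245 in WT FOXP2 + CHIR, 0.304 ± 0.114 in dhelix FOXP2 and 0.787 ± 0.220 in dhelix FOXP2 + CHIR. CHIR libraries held 2.62, 2.86, 2.73, 2.97 and 3.09 CPM and mock libraries 0.438, 0.490, 0.231, 0.358 and 0.288, without overlap, and the rise was 2.99 ± 0.22 (adjusted p = 3.9e-15). ROBO3, known from axons that cross the midline, averaged 16.4 ± 0.969 CPM in mock, 15.9 ± 2.78 in CHIR, 12.01 ± 0.362 in WT FOXP2, 11.2 ± 0.742 in WT FOXP2 + CHIR, 12.2 ± 1.34 in dhelix FOXP2 and 10.6 ± 0.702 in dhelix FOXP2 + CHIR and did not pass the test with CHIR alone (-0.05 ± 0.08, adjusted p = 0.631).

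The effect of CHIR was then compared between cells without FOXP2, with WT FOXP2 and with dhelix FOXP2. In WT FOXP2 cells CHIR raised 17 members and lowered 9, where 64.9% of all genes tested changed, 34.8% up and 30.2% down, and the median was 0.20 over members and 0.04 over all genes. In dhelix FOXP2 cells it raised 19 and lowered 7, where 63.2% changed, 34.1% up and 29.1% down, with medians of 0.37 and 0.04. The median over members was thus below 0 in cells without FOXP2 (-0.48) and above 0 in both kinds of FOXP2 cell. FOXP2 itself was higher with CHIR, at 15299 against 7076 CPM in WT FOXP2 cells and 13481 against 5319 CPM in dhelix FOXP2 cells, and the part of that difference in these results was not tested.

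The difference itself was tested as an interaction of construct and CHIR. For WT FOXP2, 18 members had a positive interaction, meaning that CHIR raised them more or lowered them less in WT FOXP2 cells, and 7 a negative one, where 65.6% of all genes passed, 30.7% positive and 34.9% negative. For dhelix FOXP2, 20 were positive and 7 negative, where 64.8% passed, 31.2% positive and 33.7% negative. Both interactions share the mock and CHIR libraries. The largest positive values were those of EPHB3, 5.03 ± 0.14 for WT FOXP2 and 5.49 ± 0.13 for dhelix FOXP2 (adjusted p = 4.8e-27 and 3.2e-29). UNC5C followed with 3.95 ± 0.24 and 3.93 ± 0.21, then EPHA4 with 3.15 ± 0.10 and 3.59 ± 0.10. The largest negative value was that of ROBO4, -2.85 ± 0.19 for WT FOXP2 and -2.19 ± 0.19 for dhelix FOXP2 (adjusted p = 7.4e-16 and 1.5e-12). EPHB1 stood at -1.93 ± 0.09 and -1.51 ± 0.09. For EFNA1 the values were 1.68 ± 0.09 and 1.29 ± 0.09, and for UNC5B 1.56 ± 0.11 and 1.58 ± 0.11.

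**Figure D4:**
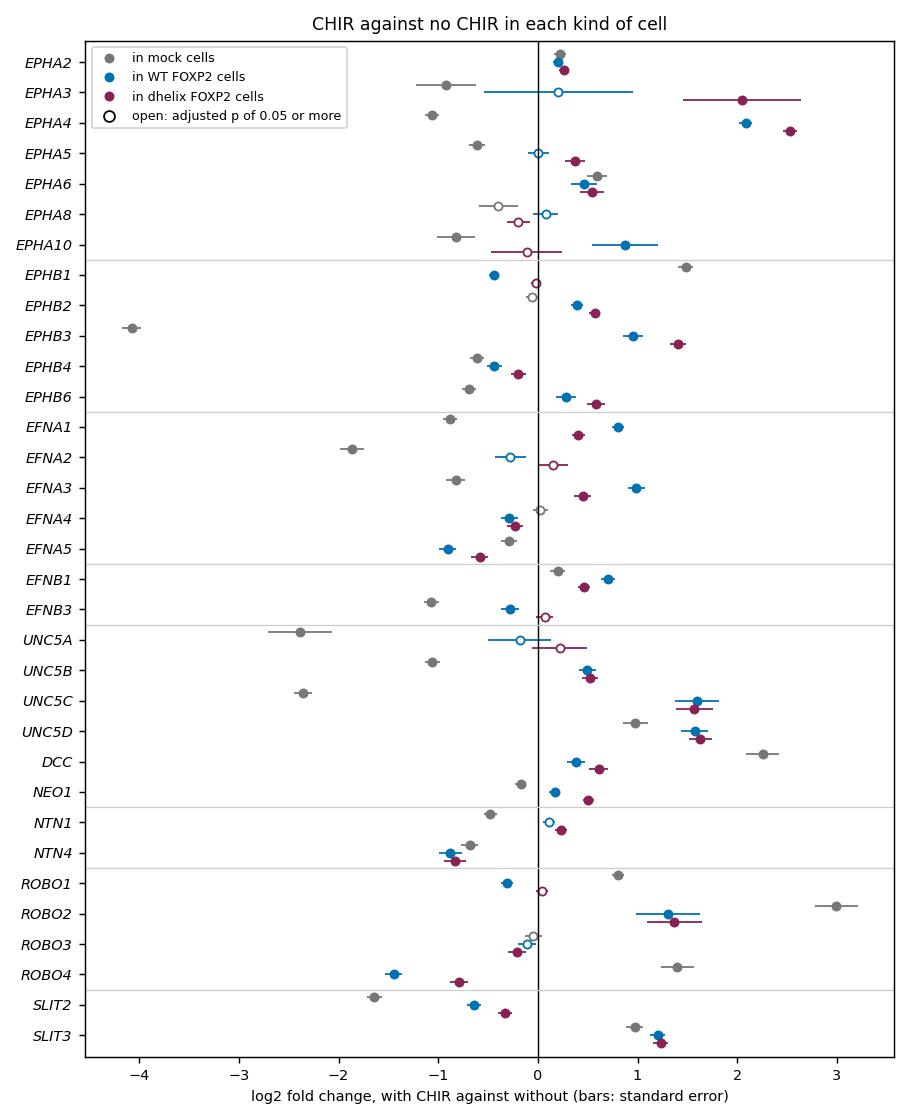
Log2 fold change with CHIR for each member in cells without FOXP2, with WT FOXP2 and with dhelix FOXP2, with bars of 1 SE and open symbols where the test was not passed. EPHB3, UNC5C and EPHA4 lie below 0 without FOXP2 (-4.08 ± 0.09, -2.36 ± 0.09 and -1.06 ± 0.07) and above 0 in both kinds of FOXP2 cell.

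Members were grouped by the direction of these changes, a grouping made after their values were seen. CHIR lowered 8 of the 33 in cells without FOXP2 and raised them in WT FOXP2 and in dhelix FOXP2 cells (24.2%, against 5.49% of all genes tested). These were the ligands EFNA1 and EFNA3 and the receptors EPHA4, EPHB3, EPHB6, NEO1, UNC5B and UNC5C. NEO1 no longer passed the test for CHIR in WT FOXP2 cells without WT FOXP2 + CHIR replicate 2 (adjusted p = 0.125). Its mock libraries (132.9 to 139.2 CPM) overlapped those of CHIR (102.7 to 133.0). The NEO1 libraries of WT FOXP2 (63.0 to 68.0 CPM) overlapped those of WT FOXP2 + CHIR (66.7 to 82.4), as did those of EPHB6 (8.13 to 9.96 and 9.67 to 11.1). The reverse pattern held for ROBO4 alone (3.03%, against 6.15%). CHIR raised 7 members in all 3 kinds of cell (21.2%, against 15.3%): DCC, EFNB1, EPHA2, EPHA6, ROBO2, SLIT3 and UNC5D, of which EFNB1 has the limit given above. For EPHA2 the mock libraries (55.7 to 57.2 CPM) and the CHIR libraries (52.7 to 75.0 CPM) overlapped. CHIR lowered EFNA5, EPHB4, NTN4 and SLIT2 in all 3 (12.1%, against 13.1%), but EPHB4 did not pass in dhelix FOXP2 cells without dhelix FOXP2 + CHIR replicate 4 (adjusted p = 0.0537).

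Within CHIR-treated cells, WT FOXP2 raised 14 members and lowered 18, where 78.4% of all genes changed, 38.2% up and 40.2% down. dhelix FOXP2 raised 15 and lowered 16, where 75.9% changed, 37% up and 38.9% down. At least 2-fold changes numbered 11 up and 11 down with WT FOXP2 and 11 up and 7 down with dhelix FOXP2, against 25.8% and 22% of all genes. These comparisons share the CHIR libraries. WT FOXP2 lowered 15 members both without and with CHIR (45.5%, against 27.2% of all genes) and raised 6 in both (18.2%, against 26.7%), the latter being DCC, EFNB1, EPHA2, EPHA8, EPHB1 and ROBO4. It lowered EFNA1, EFNA3, EPHA4, EPHB3 and UNC5A without CHIR and raised them with CHIR (15.2%, against 5.71%), and the reverse held for EFNA5 (3.03%, against 6.75%). dhelix FOXP2 lowered EFNA1, EFNA3, EPHA4, EPHB3, SLIT2 and UNC5A without CHIR and raised them with CHIR (18.2%, against 5.97%), lowered 14 members in both (42.4%, against 25.4%) and raised 8 in both (24.2%, against 25%). Among these, EFNA3 did not pass for dhelix FOXP2 against mock (-0.23 ± 0.09) without mock replicate 1 or dhelix FOXP2 replicate 4 or 5 (adjusted p = 0.0643, 0.0618 and 0.0604). The rise of UNC5A with WT FOXP2 among CHIR-treated cells (1.04 ± 0.40) was lost without CHIR replicate 1 (adjusted p = 0.0577). The CHIR libraries held 0, 0.435, 0.330, 0.505 and 0.119 CPM of UNC5A, from 0 to 8 counts, and the library at 0 is CHIR replicate 1.

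The 2 constructs were compared directly, without and with CHIR, in cells that had all received plasmid. Mean FOXP2 was 5319 CPM with dhelix FOXP2 and 7076 with WT FOXP2, and 13481 against 15299 CPM with CHIR, and the part of these levels in the differences was not tested. Without CHIR, 7 members were higher and 6 lower with dhelix FOXP2, where 35.6% of all genes differed, 16.9% higher and 18.7% lower, and 11 members did not overlap between the groups, against 29.9%. With CHIR, 12 were higher and 5 lower, where 30.6% differed, 16.6% higher and 13.9% lower, and 13 members did not overlap, against 24.5%. The number lower with CHIR was 3 without dhelix FOXP2 + CHIR replicate 4. The medians were 0.04 without CHIR and 0.22 with CHIR over members, and 0.00 and 0.01 over all genes.

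Differences of at least 1.5-fold between the constructs were few. EPHA4 was lower with dhelix FOXP2, by 1.22 ± 0.08 without CHIR and 0.78 ± 0.06 with CHIR (adjusted p = 6.6e-15 and 1.8e-12). EPHB3 was higher with dhelix FOXP2 by 1.03 ± 0.08 with CHIR (adjusted p = 3.0e-12) and by 0.57 ± 0.10 without it (adjusted p = 1.3e-05). UNC5D was higher by 0.62 ± 0.15 and 0.68 ± 0.11 (adjusted p = 0.00103 and 8.7e-06). ROBO4 was lower without CHIR (-0.80 ± 0.08, adjusted p = 3.5e-10), and with CHIR the difference did not pass (-0.14 ± 0.10, adjusted p = 0.297). EPHB1 was lower by 0.57 ± 0.05 without CHIR and 0.15 ± 0.05 with CHIR. In all, 4 members were higher with dhelix FOXP2 both without and with CHIR (12.1%, against 7.49% of all genes): EFNA4, EPHB3, NTN1 and UNC5D. Those lower in both were DCC, EPHA4 and EPHB1 (9.09%, against 7.72%). Without CHIR, EFNA4 did not pass when dhelix FOXP2 replicate 1 was left out (adjusted p = 0.0649), nor NTN1 without dhelix FOXP2 replicate 3 or WT FOXP2 replicate 1 or 4 (adjusted p = 0.0698, 0.0705 and 0.0622). With CHIR, DCC did not pass without dhelix FOXP2 + CHIR replicate 1 or 4 (adjusted p = 0.0674 and 0.053).

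**Figure D5:**
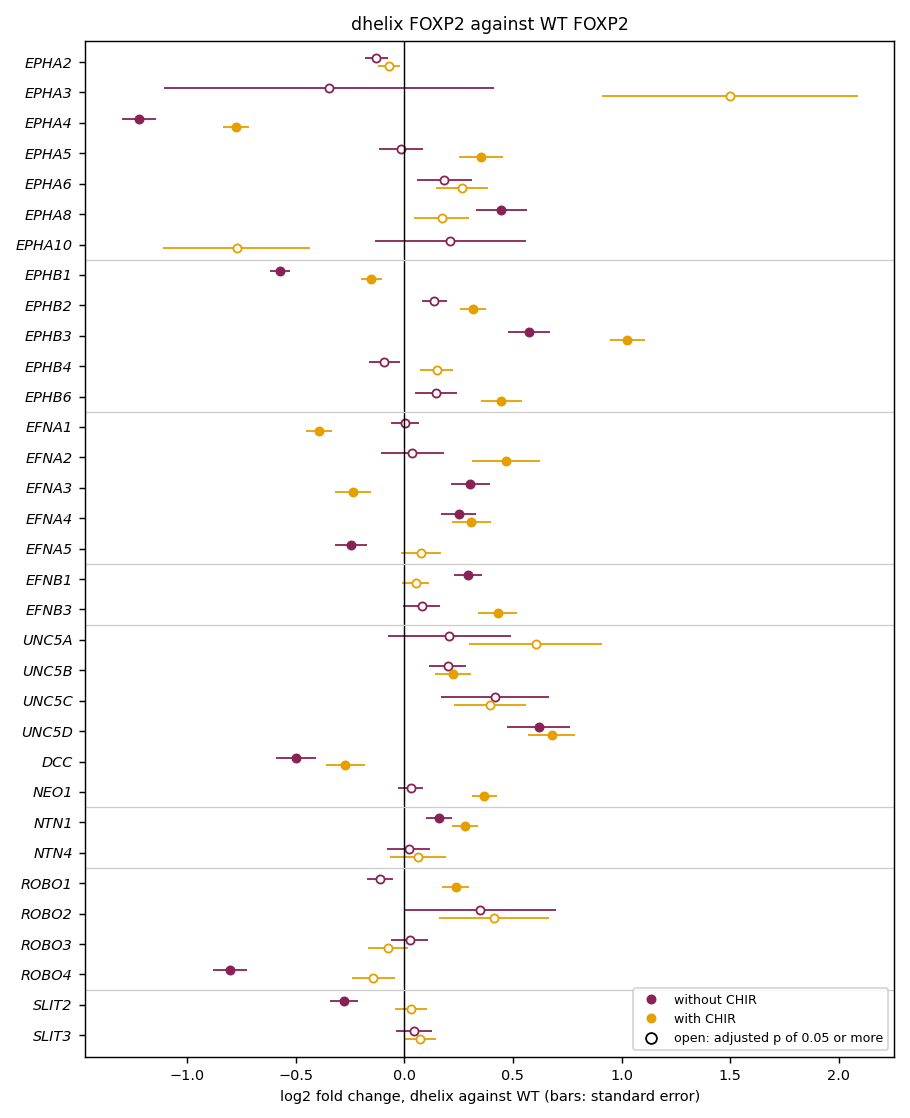
Log2 fold change of dhelix FOXP2 against WT FOXP2 for each member, without and with CHIR, with bars of 1 SE and open symbols where the test was not passed. EPHA4 lies below 0 in both (-1.22 ± 0.08 and -0.78 ± 0.06), and EPHB3 and UNC5D lie above 0 in both.

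The change of the construct difference with CHIR passed the test for 7 members in the positive and 2 in the negative direction, where 14.2% of all genes passed, 8.93% positive and 5.29% negative. The positive count was 11 in a fit of the compared groups only. The 6 with the smallest p were EPHB1 (0.42 ± 0.07), ROBO4 (0.66 ± 0.13), EPHA4 (0.45 ± 0.10), NEO1 (0.34 ± 0.08), EFNA1 (-0.40 ± 0.09) and EFNA3 (-0.54 ± 0.12), with adjusted p-values of 3.0e-05, 4.2e-04, 0.00161, 0.00368, 0.00185 and 0.0025. EFNA3 was higher with dhelix FOXP2 without CHIR (0.30 ± 0.09) and lower with CHIR (-0.24 ± 0.08, adjusted p = 0.0291). The second of these calls was lost without dhelix FOXP2 + CHIR replicate 4 or 5 or WT FOXP2 + CHIR replicate 3 (adjusted p = 0.0508, 0.0501 and 0.0758).

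Other genes of the pathways changed in both directions. Of 32 effectors of Eph and ephrin signalling tested (34 listed), 17 rose and 9 fell with CHIR, and 13 rose and 11 fell with WT FOXP2, with medians of 0.16 and 0.02. Of all genes, 38.8% rose and 35.3% fell with CHIR and 39.9% rose and 41.6% fell with WT FOXP2, which also stand beside the counts of the lists that follow. TIAM1, a Rac exchange factor, rose by 1.70 ± 0.05 with CHIR, and DNMBP, a CDC42 exchange factor, by 1.82 ± 0.03 with WT FOXP2, whereas ANKS1B, an adaptor, fell by 2.22 ± 0.29 with WT FOXP2.

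Of 25 netrin receptor effectors and other netrin-related ligands tested (28 listed), 11 rose and 10 fell with CHIR, and 9 rose and 13 fell with WT FOXP2. NTN3 fell by 4.55 ± 0.30 with CHIR and 5.11 ± 0.31 with WT FOXP2, from 2.21 ± 0.250 CPM in mock to 0.0864 ± 0.0564 and 0.0582 ± 0.0452. RGMA, a repulsive ligand of neogenin, fell too (-2.91 ± 0.08 and -3.71 ± 0.09), as did NTN5 (-1.14 ± 0.39 and -3.46 ± 0.54) and ABLIM1, an actin-binding LIM protein (-1.79 ± 0.04 and -2.86 ± 0.04, and -3.11 ± 0.04 with dhelix FOXP2). NTN5 had few counts, 63 over the 5 mock libraries, 24 in CHIR and 5 in WT FOXP2. RGMB, a relative of RGMA in the same list, went the other way. It averaged 27.7 ± 1.15 CPM in mock, 36.1 ± 2.47 in CHIR and 88.9 ± 3.57 in WT FOXP2.

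Of 23 Slit and Robo effectors, all tested, 9 rose and 8 fell with CHIR, and 6 rose and 12 fell with WT FOXP2. With CHIR, 13 of the 23 were higher with dhelix FOXP2 than with WT FOXP2 and 0 lower, with a median of 0.15, where 16.6% of all genes were higher and 13.9% lower and their median was 0.01. NELL2, a ligand of ROBO3, rose by 3.77 ± 0.15 with CHIR. The syndecans SDC2 and SDC3, heparan sulfate carriers that bind Slits, fell by 3.30 ± 0.08 and 2.94 ± 0.06 with WT FOXP2. SDC4, a syndecan of the same list, went the other way, from 89.9 ± 2.19 CPM in mock to 415 ± 10.8 in WT FOXP2. SDC1, also listed, averaged 185 ± 6.61 CPM in mock, 132 ± 5.03 in WT FOXP2 and 200 ± 5.61 in dhelix FOXP2. SRGAP3, a GTPase activating protein of the Slit-Robo pathway, fell by 2.68 ± 0.12 with CHIR and, within CHIR-treated cells, rose by 1.92 ± 0.13 with WT FOXP2.

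The rows that were not tested had few counts. EPHA1 had 3 counts in all over the 5 mock libraries, 6 in CHIR, 9 in WT FOXP2, 46 in WT FOXP2 + CHIR, 23 in dhelix FOXP2 and 55 in dhelix FOXP2 + CHIR. It shares 82 exon bases with the abundant ZYX on the opposite strand. EPHA7 had 15 counts in mock, 9 in CHIR, 4 in WT FOXP2 + CHIR, 1 in dhelix FOXP2 and 0 in WT FOXP2 and dhelix FOXP2 + CHIR. EFNB2, the arterial ephrin, had 42, 23, 28, 20, 24 and 10 counts in mock, CHIR, WT FOXP2, WT FOXP2 + CHIR, dhelix FOXP2 and dhelix FOXP2 + CHIR. SLIT1 had 14, 4, 4, 4, 8 and 5 in the same order. A count of 0 in 1 library allows up to 3 counts, which is 0.0990 to 0.190 CPM over the 30 libraries.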

How the data were processed

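RNA was sequenced from 30 libraries of U2OS cells (6 groups of 5) with a stranded, paired-end kit, per the labels' protocols. The authors deposited raw gene counts, 1 column per library, and all 30 columns were used (0 unused). STAR 2.6.1a, featureCounts, Subread, DESeq2 and the build hg19 are named per the submitters' processing notes. Not given in the sources used here are the strand setting, the release of the annotation and the choice of reads or fragments, so genes overlapping on opposite strands are uncertain. Overlaps and exon lengths were taken from GENCODE 29 (GRCh38) by Ensembl ID.

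Counts were filtered with filterByExpr over the 6 groups (18485 of 57373 rows, with 99.9% of the counts), scaled by trimmed means of M values and tested with the robust quasi-likelihood fit of edgeR 4.0.16 under R 4.3.3, with all 30 libraries in the model. There were 12 comparisons, 9 between pairs of groups and 3 interactions, each adjusted over all genes, with a threshold of 0.05. Each SE was obtained as the log2 fold change over the root of its F statistic. Simulated counts with known changes served to check the edgeR step, and libraries of at least 15755842 counts set the precision. Reads carry no molecular identifiers, so floors cover counting error only. No pair of replicates agreed within sampling noise (the lowest chi-square was 1.39 per gene).

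The members, the lists of other pathway genes and the tests were chosen with earlier results of these data known. Statistics were given for most of the 6 members with the largest changes per direction against mock. They were also given for those at least 1.5-fold apart between the constructs and for the 6 with the smallest p per interaction. For some of these, EPHA3 and UNC5B among them, no adjusted p is printed, and for EFNA2 no change with either construct. Values in every group were given for members with a mean of at least 1 CPM in any group. Of the pathway lists, up to 4 genes each with the largest change in any comparison against mock were named, except that 1 gene of the Eph list is not reported here. Alternatives were DESeq2 size factors, DESeq2 1.42.0, a fit of the compared groups only, a replicate block, a filter at a mean of 1 CPM or none at all, library sizes without FOXP2 and each library left out in turn. A fit without the 3 libraries that stood apart, and the scale of CPM per kb, were added after seeing the data.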

Additional observations from a re-analysis of the deposited data

Results flagged for a closer look

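Of 174 combinations of a member and a group, 4 held a library far from the other 4 by Dixon's test at the 95% level, and chance gives about 1 in 20. EPHB6 was at 47.0 CPM in mock replicate 2, against 50.5 to 51.9 in the other mock libraries. It was at 9.67 CPM in WT FOXP2 + CHIR replicate 2, against 10.7 to 11.1. EFNB3 was at 44.3 CPM in mock replicate 2, against 48.2 to 48.9. ROBO3 was at 11.04 CPM in CHIR replicate 1, against 16.0 to 17.6.

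For the members with the smallest p in each interaction, the effect of CHIR, or of the deletion, differed between kinds of cell by the test of the difference itself (edgeR quasi-likelihood, adjusted p under 0.05). With WT FOXP2 the log2 difference in the CHIR effect from cells without FOXP2 was 5.03 for EPHB3, 3.95 for UNC5C, 3.15 for EPHA4, 1.68 for EFNA1, -1.93 for EPHB1 and -2.85 for ROBO4. With dhelix FOXP2 it was 5.49 for EPHB3, 3.93 for UNC5C, 3.59 for EPHA4, 1.58 for UNC5B, 1.29 for EFNA1 and -1.51 for EPHB1. The log2 difference between dhelix and WT FOXP2 changed with CHIR by 0.66 for ROBO4, 0.45 for EPHA4, 0.42 for EPHB1, 0.34 for NEO1, -0.40 for EFNA1 and -0.54 for EFNA3.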

How the results depend on the processing

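None of the member values reversed direction after a call, in any alternative. Counts of members called stayed within 1.5 times the values reported, with 2 exceptions. Members lower with dhelix FOXP2 than with WT FOXP2 in CHIR-treated cells numbered 5, and 3 to 6 when each library was left out in turn. Members with a positive change of the construct difference with CHIR numbered 7, and 11 in a fit of the compared groups only. The cause was not tested. With DESeq2, 387 of 395 member values kept their direction and side of the threshold, with DESeq2 size factors 393 of 396, with no filter 385 of 396 and with the mean of at least 1 CPM 376 of 384. A fit of the compared groups only kept 361 of 377. Leaving out FOXP2 from library sizes kept 390 of 396, and leaving out the 3 libraries that stood apart kept 381 of 396. Of 4950 member values with 1 library left out, 4809 were kept, 96 lost the call and 45 gained one.

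The replicate numbers did not clearly pair the samples, though a partial pairing was not tested. Over 75 pairs of libraries with the same number, the deviations from group means correlated at -0.286 to 0.343 (mean 0.0199, over 13380 genes). The mean was -0.00475 over 300 pairs with different numbers, and 10 of 30 libraries correlated best with their own number. With the replicate block, 391 of 396 member values kept their call, 1 lost it and 4 gained one. Members higher and lower then numbered 10 and 19 for CHIR against mock and 7 and 21 for WT FOXP2 against mock.

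Depth limits the members with few counts, among them EPHA3, UNC5A, ROBO2 and EPHA10, with 7, 24, 24 and 31 counts in their lowest groups, and the rows not tested.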
